A study of Homo sapiens with 4 samples.

Results

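The enzymes that attach palmitate to proteins and take it off again were examined in HCC1954 cells, an established human breast cancer line with amplified ERBB2 (HER2), after knockdown of one of these enzymes, ZDHHC15. The members were the protein-coding genes named as ZDHHC palmitoyl transferases, as their accessory proteins GOLGA7, GOLGA7B and SELENOK, or as protein thioesterases. There were 36 of them among 58735 genes, namely 24 transferases, 3 accessory proteins and 9 thioesterases, and 34 passed the filter on low counts. Total RNA was sequenced from 2 samples with a scrambled control hairpin (shCON) and 2 samples with a hairpin against ZDHHC15 (shZDHHC15). All 4 samples were the same cell line and were collected 36 h after the hairpin plasmids had been introduced by lipofection. The labels describe that step as transient, while the design text calls the knockdown stable. The sources used here do not state which hairpin the sequenced cells carried, or whether the sample numbers stand for separate cultures. P-values therefore measure the spread between these samples, which may be technical. The study's methods mention western blot screening of multiple monoclonal cultures for its hairpins. Whether the sequenced cells were such clones is not stated, and if so, knockdown and clone cannot be told apart in these samples.

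S-palmitoylation is the attachment of a palmitoyl chain to a cysteine of a protein through a thioester bond, and it tethers soluble proteins to membranes. ZDHHC enzymes are multi-pass membrane proteins of the endoplasmic reticulum, the Golgi and the plasma membrane that first load the chain onto their own catalytic cysteine, within an Asp-His-His-Cys motif, and then pass it to the substrate. Because thioesterases of the LYPLA, ABHD17 and PPT families remove the chain, the modification can turn over, and several transferases share substrates. ZDHHC15 belongs with ZDHHC2 and ZDHHC20 to one branch of the family and is known for palmitoylating the synaptic scaffold PSD-95.

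The codons of the catalytic motif show what the transferases have in common. Reading the coding sequence of 1 principal GENCODE transcript a gene, an Asp-His-His-Cys motif was found in 23 of the 24 transferases, and ZDHHC13 carried Asp-Gln-His-Cys in its place. The 30 bases around the motif are shown 5′ to 3′ on the coding strand for ZDHHC15, for its relative ZDHHC20, for ZDHHC5, the next most abundant transferase, for the called transferases ZDHHC24, ZDHHC18 and ZDHHC6, and for ZDHHC13, with the 12 bases of the 4 catalytic codons in capitals.

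ZDHHC15: ttaaaaatgGATCATCACTGCccttgggtt
ZDHHC20: cttaagatgGATCATCACTGTccttgggtg
ZDHHC5: gaggaatttGATCATCACTGCccctgggtg
ZDHHC24: ctgcgtcggGACCACCACTGCcgcctgctg
ZDHHC18: gaacgatttGACCATCACTGCccctgggtg
ZDHHC6: atgaagatgGACCATCACTGTccttggatc
ZDHHC13: gctcgatatGATCAACACTGCctgtggact

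In ZDHHC15 the window lies between chrX:75429195-75429973 on the minus strand of GRCh38 and is split by an intron, and the catalytic cysteine is residue 159 of 337. ZDHHC13 has its window at chr11:19165103-19165132 on the plus strand, within 1 exon, and its cysteine is residue 456 of 622.

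The study's primer list gives 6 hairpin targets for ZDHHC15, which are shown because they are the reagents that could act on other members through shared bases. Each has 19 bases and is written 5′ to 3′ as the strand of the transcript.

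hairpin 1: tcgctatatcaagtatcta
hairpin 2: tgtgctatgtgtgtgttaa
hairpin 3: aggagcgctatgaaaatga
hairpin 4: agctactcaagaagatcaa
hairpin 5: ctgaagcctttgtttaatt
hairpin 6: cagcaggtgtttggagata

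All 6 matched ZDHHC15 exactly, in 2 of its 3 annotated transcripts, and had 0 exact matches in transcripts of other genes on either strand. Coding exons hold 3 of the sites, hairpin 3 in exon 4 (chrX:75450882-75450900), hairpin 6 in exon 9 (chrX:75421898-75421916), and hairpin 2 across an exon junction that starts in exon 5 (chrX:75429970-75431458). Hairpins 5 (chrX:75372444-75372462), 1 (chrX:75372376-75372394) and 4 (chrX:75372253-75372271) lie in the 3′ UTR in exon 12. Among the other members the nearest site had 3 mismatches, between hairpin 3 and ZDHHC20, and for each of the other 5 hairpins the nearest member had 4 or 5. ZDHHC2 had no site with fewer than 6 mismatches to any of the 6. Mismatches were counted over the whole target on the transcript strand, so shorter shared stretches were not searched. Whether a hairpin acted on another member was not tested.

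**Figure D1:**
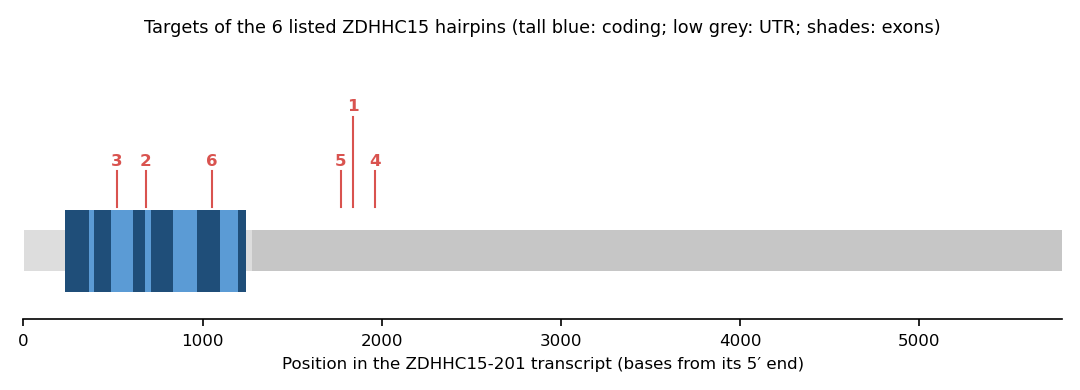
Positions of the 6 listed hairpin targets on the 5796-base ZDHHC15-201 transcript, with position in bases on the x axis, coding parts of the 12 exons in blue, UTRs in grey and target numbers in red. Targets 3, 2 and 6 fall in the coding part (bases 232 to 1242) and targets 5, 1 and 4 in the first part of the 3′ UTR.

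ZDHHC15 (ENSG00000102383, chrX:75368427-75523502, minus strand) was the most abundant of the 36 members in control cells and was not detected after knockdown. It received 17617 and 15716 counts in the shCON libraries, which had 18496026 and 17560982 counts in all, and 0 counts in each shZDHHC15 library, of 18207192 and 19118704. Its level in shCON was 949 CPM, the count scaled to a fixed library size with TMM factors, and set against a floor of 3 counts per library the shZDHHC15 level was at least 6045-fold lower (adjusted p = 1.86e-14 by the quasi-likelihood test of edgeR, Benjamini-Hochberg adjusted over the 15817 genes tested). In RNA of whole cultures, fewer expressing cells and less RNA per cell cannot be told apart. RNA hairpins usually leave some of their target RNA, and how the counts came to be 0 in both libraries was not tested. No annotated gene shares exon bases with ZDHHC15. The neighbouring genes UPRT (log2 fold change -0.07), PBDC1 (0.07) and MAGEE1 (0.12) on the X chromosome were not called, with adjusted p-values between 0.723 and 0.867.

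To compare genes with each other, CPM was divided by the length in kb of all annotated exons of a gene, whichever transcripts the cells made. On this scale ZDHHC15 stood at 142 and 137 CPM per kb in the 2 shCON libraries, 304th among the 15805 protein-coding genes with a count in control cells and 104th by CPM without length scaling. GOLGA7, the partner subunit of ZDHHC9, followed at 101 and 102 CPM per kb, and LYPLA2, the thioesterase also called APT2, at 67.3 and 73.3. The next transferase was ZDHHC5, a plasma membrane enzyme, at 53 and 51.7 CPM per kb, 2.66-fold below ZDHHC15.

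Behind ZDHHC5 came ZDHHC7, a Golgi enzyme with many substrates, at 44.1 and 47 CPM per kb, and ZDHHC12, an enzyme of the secretory pathway, at 36.7 and 39.1. ZDHHC18 and ZDHHC9, which belong to one branch of the family, had overlapping values of 19 and 20.2 against 19.4 and 18.9 CPM per kb. The closest relatives of ZDHHC15 were expressed lower: ZDHHC20, known to palmitoylate the EGF receptor, stood at 15.7 and 13.8 CPM per kb and ZDHHC2 at 2.38 and 2.68, which is 9.41-fold and 55.1-fold below ZDHHC15. Over the 34 members above 0 in control cells, 11 of 33 neighbours in the order of levels had overlapping shCON values and so were not separated by the spread of these libraries. That spread does not cover error from the gene length used, so the order of the other neighbours can also depend on it.

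The low end held ZDHHC1 at 0.217 and 0.251 CPM per kb, 594-fold below ZDHHC15. ZDHHC22 had 0 counts in every library, and ZDHHC19 had 0 in both shCON libraries and 1 and 0 in the shZDHHC15 libraries, so neither was tested. ZDHHC11, which like ZDHHC19 was among the transferases the study singled out, was present at 1.49 and 1.04 CPM per kb.

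**Figure D2:**
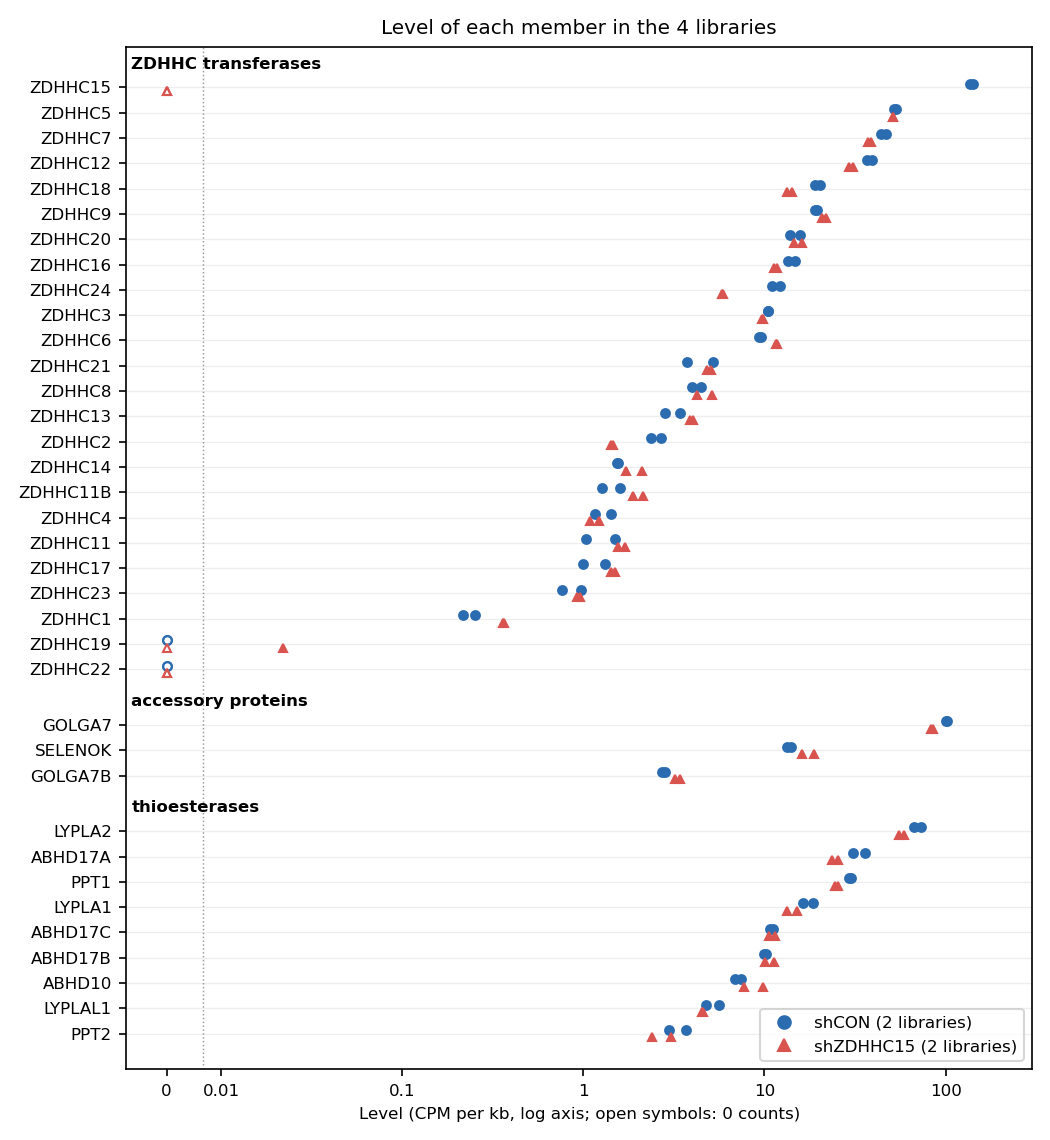
Level of each of the 36 members in the 4 libraries, in CPM per kb on a log axis, by role and in order of the shCON mean. Blue circles are shCON and red triangles shZDHHC15 libraries, and open symbols at the left are libraries with 0 counts. ZDHHC15 leads in shCON and is at 0 in shZDHHC15, and most other members lie close together in both groups.

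In control cells ZDHHC15 made up 35.6% and 34.6% of the summed level of the 24 transferases. The other 23 summed to 257 and 258 CPM per kb in shCON and to 231 and 235 in shZDHHC15. Their sum was thus lower in both shZDHHC15 libraries than in both shCON libraries, at 0.907 of the control mean, a ratio of 0.955 with library size as the sole scaling. With ZDHHC15 included, the family fell from 398 and 394 to 231 and 235 CPM per kb, 58.8% of the control level.

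The 24 transferases stood at 2.18 and 2.05 times the summed thioesterase level in shCON and at 1.48 and 1.47 times in shZDHHC15. That fall came from ZDHHC15, since the other 23 stood at 1.40 and 1.34 times the thioesterases in shCON, below both shZDHHC15 values. ZDHHC2 and ZDHHC20 together had 18.1 and 16.5 CPM per kb in shCON and 17.6 and 16 in shZDHHC15, so the groups overlapped. These sums were not tested, and 2 samples against 2 could not reach a two-sided p under 0.333 in an exact permutation test.

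**Figure D3:**
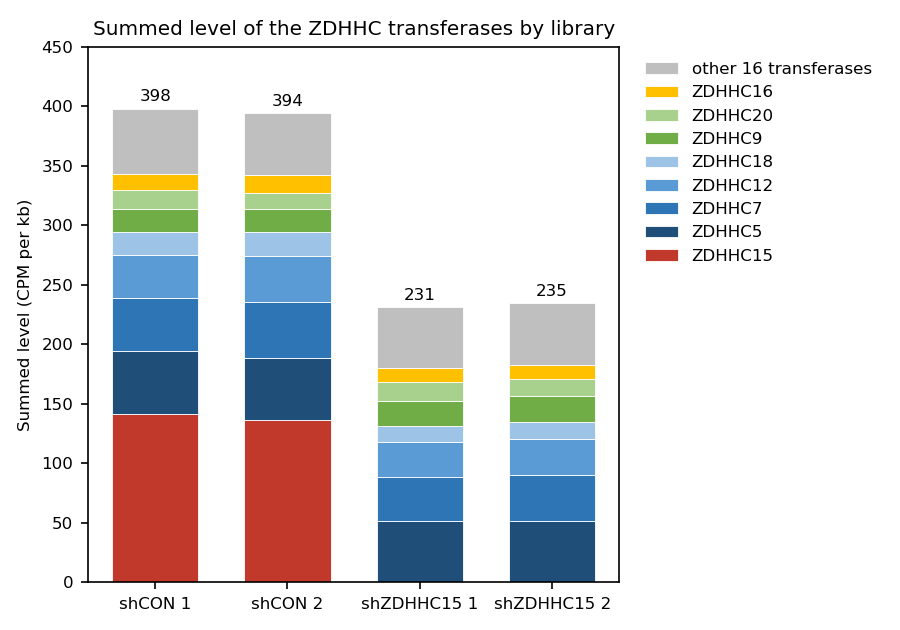
Summed level of the 24 ZDHHC transferases in each library, in CPM per kb from 0, stacked by gene. The shZDHHC15 bars (231 and 235) lack the ZDHHC15 block of the shCON bars (398 and 394), and the summed height of the other blocks is slightly lower.

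Among the 23 other transferases, 21 passed the filter, of which 2 rose and 6 fell in shZDHHC15 (adjusted p under 0.05). Of the 15817 genes tested, 42.0% were called, 21.7% higher and 20.3% lower, so the share of these transferases called (38.1%, with 9.52% higher and 28.6% lower) is to be read against a background in which many genes moved. Their median log2 fold change was 0.11 with quartiles of -0.26 and 0.31, against 0.02, -0.33 and 0.41 for all genes, and 12 lay above 0 and 9 below. DESeq2 called 0 higher and 5 lower, where of the 15817 genes it called 2432 higher and 2590 lower. The sign of that median rested on 1 library, since it was -0.05 without shCON replicate 2, and it was 0.01 with a correction for GC content. No call was larger than a log2 fold change of 1 in either direction, a limit passed by 11.3% of all genes.

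ZDHHC24, a transferase about which little is known, fell most. It had 11 and 12.2 CPM per kb in shCON and 5.82 and 5.91 in shZDHHC15, so the groups stood far apart compared with the spread within each (log2 fold change -0.98, standard error [SE] 0.108, adjusted p = 5.26e-06), and the fitted level was 0.506 of control. An antisense gene, BBS1, shares exon bases with it but received between 4 and 15 counts, against 679 to 1291 for ZDHHC24.

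ZDHHC2, the relative of ZDHHC15 that acts at the plasma membrane and in endosomes, had 292 and 304 counts in shCON and 182 and 189 in shZDHHC15. Its groups did not overlap, and its level fell from 2.38 and 2.68 to 1.45 and 1.43 CPM per kb (log2 fold change -0.81, SE 0.152, adjusted p = 0.000631). The other relative, ZDHHC20, had overlapping groups, with 15.7 and 13.8 CPM per kb in shCON and 16.2 and 14.5 in shZDHHC15. Its log2 fold change was 0.05 with a 95% interval from -0.17 to 0.28 (SE 0.106, adjusted p = 0.721), and it changed sign with a correction for GC content and without shCON replicate 2 or shZDHHC15 replicate 1.

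ZDHHC18, a Golgi enzyme that can act on Ras proteins, went from 19 and 20.2 to 13.3 and 14.2 CPM per kb, a clear gap between the groups (log2 fold change -0.51, SE 0.0981, adjusted p = 0.000749). The remaining 3 falls were smaller. ZDHHC12 went from 36.7 and 39.1 to 29.4 and 30.7 CPM per kb (log2 fold change -0.34, SE 0.0979, adjusted p = 0.0127), and PKN3, which overlaps it antisense, was not called (-0.11, adjusted p = 0.556). ZDHHC16, which palmitoylates ZDHHC6 in the endoplasmic reticulum, went from 13.6 and 14.8 to 11.7 and 11.2 (log2 fold change -0.31, SE 0.112, adjusted p = 0.0384). ZDHHC7 went from 44.1 and 47 to 37.3 and 38.8 (log2 fold change -0.26, SE 0.0919, adjusted p = 0.0337), while its close relative ZDHHC3 was not called (10.4 and 10.4 against 9.64 and 9.79).

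The 2 transferases called higher were ZDHHC6 and ZDHHC11B. ZDHHC6, the enzyme of the endoplasmic reticulum that palmitoylates calnexin, had 9.59 and 9.36 CPM per kb in shCON and 11.7 and 11.7 in shZDHHC15, with no overlap (log2 fold change 0.30, SE 0.109, adjusted p = 0.0361). ZDHHC6 shares exon bases with ACSL5 on the opposite strand, and ACSL5 rose from 140 and 154 to 482 and 474 counts while ZDHHC6 went from 655 and 592 to 813 and 864. The study's methods name the NEBNext Ultra RNA kit for its libraries and mention no strand-specific preparation. The sources used here do not say whether counting used the strand, and without strand the reads of such a pair cannot be told apart.

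ZDHHC11B had few counts, 140 and 103 in shCON and 169 and 203 in shZDHHC15 (log2 fold change 0.49, SE 0.186, adjusted p = 0.0457). ZDHHC11 is its near-identical neighbour on chromosome 5, so reads may be split between them, and it also shares exon bases with BRD9 on its own strand. It was not called, at 189 and 122 against 201 and 231 counts (log2 fold change 0.35, SE 0.186, adjusted p = 0.144). Both rises depended on the processing: with DESeq2 or with upper-quartile factors neither was called.

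Among the transferases that were not called, ZDHHC5 was the most abundant and the most even. It had 53 and 51.7 CPM per kb in shCON and 51.5 and 51.4 in shZDHHC15, and its log2 fold change was -0.02 with a 95% interval from -0.21 to 0.16 (SE 0.0867, adjusted p = 0.852), and 0.05 with library size as the sole scaling. ZDHHC9, which palmitoylates Ras proteins together with GOLGA7, had 19.4 and 18.9 against 20.9 and 21.8 CPM per kb (adjusted p = 0.205). ZDHHC13 and ZDHHC17, the transferases with ankyrin repeats, had log2 fold changes of 0.33 and 0.33 (adjusted p = 0.0503 and 0.134), and ZDHHC14 0.31 (adjusted p = 0.0957). ZDHHC13 was called higher with a replicate block (adjusted p = 0.0286), with library size as the sole scaling (0.0274) and with at least 10 counts in every sample (0.0456). The others not called (ZDHHC1, ZDHHC4, ZDHHC8, ZDHHC21 and ZDHHC23) had adjusted p-values between 0.228 and 0.679, and the values of ZDHHC1 came from 14 and 15 counts in shCON.

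**Figure D4:**
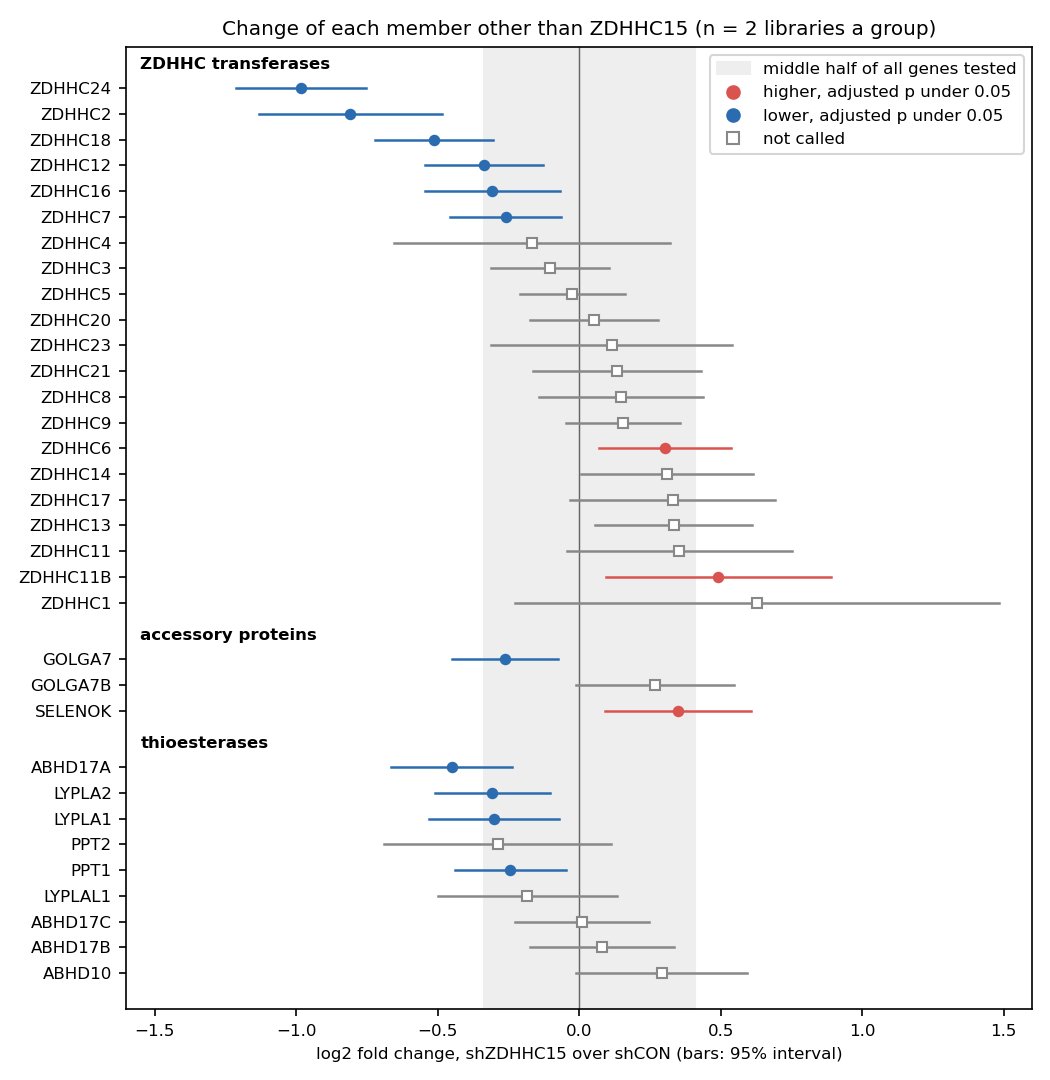
Log2 fold change of the 33 tested members other than ZDHHC15, shZDHHC15 over shCON, with 95% intervals (n = 2 libraries a group), by role. Blue circles were called lower, red circles higher and open squares not called, and the grey band spans the quartiles of all genes tested (-0.33 to 0.41). ZDHHC24, ZDHHC2, ZDHHC18 and ABHD17A lie below the band and ZDHHC12 at its edge, and above it lie ZDHHC11B and, with a wide interval, ZDHHC1.

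The accessory proteins did not move one way. GOLGA7 fell from 101 and 102 to 85.5 and 83.2 CPM per kb (log2 fold change -0.26, SE 0.0879, adjusted p = 0.0258) although its enzyme ZDHHC9 was not called. SELENOK, a selenoprotein of the endoplasmic reticulum that binds ZDHHC6, rose from 13.3 and 14.1 to 18.7 and 16.2 CPM per kb (log2 fold change 0.35, SE 0.121, adjusted p = 0.0303). GOLGA7B, the partner of ZDHHC5, had 2.81 and 2.71 against 3.43 and 3.23 CPM per kb and was not called (log2 fold change 0.27, adjusted p = 0.115).

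The thioesterases were all tested, of which edgeR called 4 of 9 lower and 0 higher. At an unadjusted p under 0.05 the counts were the same, where 3777 of all genes tested were lower and 4031 higher. DESeq2 also called 4 lower and 0 higher, where 2590 of all genes tested were lower and 2432 higher. LYPLA2, LYPLA1 and PPT1 were not called with library size as the sole scaling (adjusted p = 0.0581, 0.119 and 0.149), in the unfiltered fit or without shZDHHC15 replicate 1, which left ABHD17A as the called thioesterase. ABHD17A, a membrane-bound depalmitoylase of Ras and PSD-95, went from 30.9 and 36.1 to 23.7 and 25.4 CPM per kb, without overlap (log2 fold change -0.45, SE 0.1, adjusted p = 0.00224). It has near-identical stretches in 5 pseudogenes, the most abundant of which, ABHD17AP1, received between 16 and 42 counts against 2705 to 3740 for ABHD17A. Its relatives ABHD17B (10.3 and 9.98 against 11.3 and 10.1) and ABHD17C (10.7 and 11.1 against 10.6 and 11.4) had overlapping groups.

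The cytosolic thioesterases LYPLA2 and LYPLA1, or APT2 and APT1, were both lower by a similar step. LYPLA2 went from 67.3 and 73.3 to 55 and 58.6 CPM per kb (log2 fold change -0.31, SE 0.0953, adjusted p = 0.0177) and LYPLA1 from 18.4 and 16.4 to 13.2 and 15 (log2 fold change -0.30, SE 0.108, adjusted p = 0.0362). PPT1, the lysosomal thioesterase whose loss causes infantile neuronal ceroid lipofuscinosis, went from 30.1 and 29.3 to 25.6 and 24.6 (log2 fold change -0.24, SE 0.0919, adjusted p = 0.0453). CAP1, which overlaps PPT1 on the opposite strand, moved by -0.26 (adjusted p = 0.034). PPT2, LYPLAL1 and the mitochondrial ABHD10 were not called, with log2 fold changes of -0.29, -0.18 and 0.29 (adjusted p = 0.238, 0.345 and 0.114).

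The median log2 fold change over the thioesterases was -0.24. Their summed level went from 183 and 192 to 156 and 160 CPM per kb, 84.4% of control. The share called, 44.4%, was close to the 42.0% of all genes, and all the called members were on the lower side, where the background is 20.3%. Over all 33 members tested besides ZDHHC15, the groups did not overlap for 25, or 75.8%, against 72.5% of all genes.

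Of the 14 members called besides ZDHHC15, 5 stayed called under each of 9 alternatives that kept the 4 samples: ZDHHC24, ZDHHC2, ZDHHC18, ZDHHC12 and ABHD17A. ZDHHC24, ZDHHC2, ZDHHC18 and ABHD17A also stayed called with any 1 library left out. Over all genes, calls were also fewer without shCON replicate 2 and without either shZDHHC15 replicate. Without shCON replicate 1 their number was similar to that with all 4 samples. The shifts below are to be read against that and are not particular to the members. Without shZDHHC15 replicate 1 the transferases called lower dropped from 6 to 3, the thioesterases and accessory proteins called lower from 5 to 1 and those called higher from 1 to 0. Without shZDHHC15 replicate 2, thioesterases and accessory proteins called lower numbered 2 and those called higher 2. Without shCON replicate 1 the transferases called higher numbered 5 (ZDHHC11B, ZDHHC11, ZDHHC13, ZDHHC17 and ZDHHC21) and no longer included ZDHHC6, and they numbered 0 without shCON replicate 2, shZDHHC15 replicate 1 or shZDHHC15 replicate 2. Without shCON replicate 1 the rise of SELENOK was lost.

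The change of a member went with its level in control cells. Across the 33 members the Spearman correlation between log2 fold change and CPM per kb in shCON was -0.59, and over all genes tested, without ZDHHC15, it was -0.33. These are descriptions over genes that share the same 4 libraries, and the shCON level enters both quantities. The 9 members with a GC content over 55% had a median of -0.31 on the log2 scale and the 14 under 45% had 0.10, where all genes in the same ranges had -0.09 and 0.11. With a correction for GC content 6 transferases were called lower and 1 higher, where 3586 of all genes tested were lower and 3470 higher. The part of level and GC content in the calls was not tested further.

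**Figure D5:**
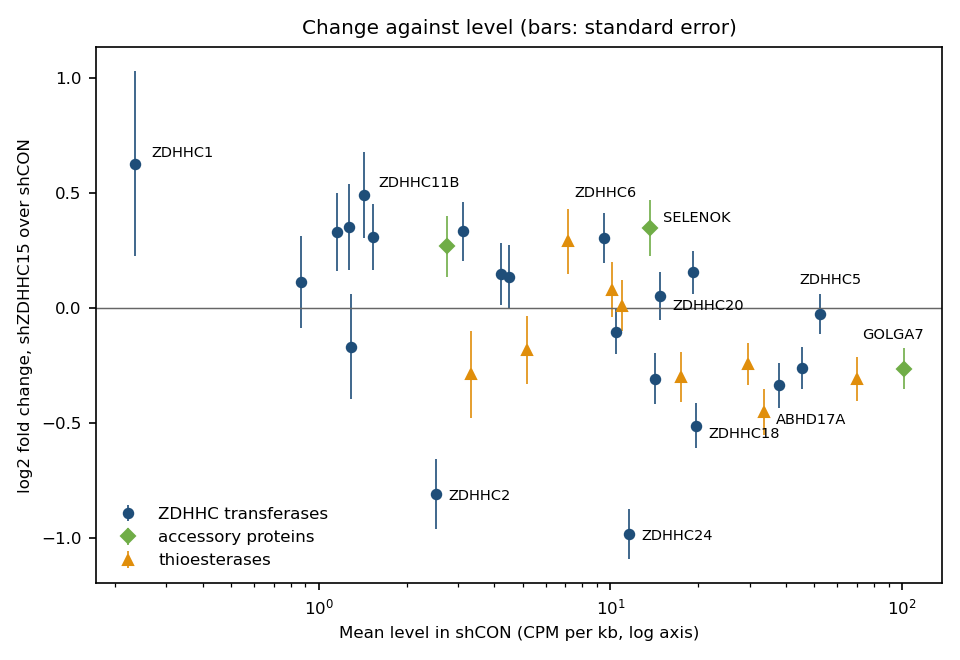
Log2 fold change of the 33 tested members other than ZDHHC15 against their mean level in shCON, in CPM per kb on a log axis, with SEs as bars and one symbol per role. Members of low level lie mostly above 0 and those of high level mostly below, and ZDHHC2 and ZDHHC24 sit below members of like level.

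Genes outside this enzyme set that supply acyl chains or attach lipids to proteins were also described. Of 15 such genes 12 were tested, and 4 were higher and 5 lower, or 75% called against 42.0% of all genes. The list was chosen with earlier results of these data known, so this share only describes the genes listed. The rises were all in acyl-CoA supply: FASN, the fatty acid synthase that makes palmitate, had 8298 and 7188 counts in shCON and 17493 and 14252 in shZDHHC15 (log2 fold change 0.92, SE 0.11, adjusted p = 1.28e-05). The acyl-CoA synthetases ACSL1 (log2 fold change 1.01, adjusted p = 1.52e-06), ACSL5 (1.58, adjusted p = 1.27e-06) and ACSL3 (0.36, adjusted p = 0.00435) rose as well, ACSL5 with the overlap described above. Not called were ACSL4 (0.06, adjusted p = 0.689) and DBI (-0.01, adjusted p = 0.954) of acyl-CoA supply, and NMT1 (-0.04, adjusted p = 0.778).

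Lower were the acyl-CoA binding protein ACBD6 (log2 fold change -0.76, adjusted p = 0.000171), the acyl-CoA thioesterase ACOT7 (-0.44, adjusted p = 0.00162) and 3 enzymes outside the ZDHHC family that attach lipids to proteins. These were the Hedgehog palmitoyl transferase HHAT (-0.72, adjusted p = 0.00142), the Wnt acyl transferase PORCN (-0.69, adjusted p = 0.00178) and the N-myristoyl transferase NMT2 (-0.59, adjusted p = 0.0166). NMT2 was not called with DESeq2 (adjusted p = 0.0619), in the unfiltered fit (adjusted p = 0.0706), without shCON replicate 2 (adjusted p = 0.138) or without shZDHHC15 replicate 1 (adjusted p = 0.0779).

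The study is about the Hippo pathway effector YAP. In these libraries YAP1 fell from 7764 and 7011 to 1024 and 1272 counts (log2 fold change -2.81, SE 0.105, adjusted p = 4.3e-11), and its partner TEAD1 was not called (-0.24, SE 0.11, adjusted p = 0.097). TEAD1 was called lower with a replicate block (adjusted p = 0.0476), with a correction for GC content (-0.34, adjusted p = 0.00731) and without shCON replicate 2 (-0.39, adjusted p = 0.00182). The TEAD core motif GGAATG was searched on both strands of RefSeq promoter windows (250 bases before to 50 after the start, GRCh38.p14). Of the 36 members 27 had an entry. No match was recorded for ZDHHC15, which is also the outcome for a gene without an entry, and whether it had one was not recorded. The motif was present for 2 of the 27 members with an entry, PPT2 and ZDHHC1, and in 14% of all 35116 windows. Bases outside these windows were not searched, and nothing about binding by TEAD1 follows from the match or its absence.

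The libraries held high summed levels of HER2-positive breast epithelial markers, and most of these markers differed between the groups. The 8 markers fixed for this cell type summed to between 19470 and 21002 CPM in shCON and between 11739 and 11961 in shZDHHC15. Of them 6 were lower and 1, KRT19, was higher, where 42.0% of all genes were called. KRT8 (log2 fold change -1.62, adjusted p = 4.87e-09) and KRT18 (-1.58) fell most. KRT19 was low, at 18.8 and 20.1 CPM in shCON. Of 7 fibroblast markers COL1A1 alone could be tested and was higher, and the others had at most 5 counts. The leukocyte markers CD3E, CD3D and MS4A1 were at 0 in all libraries, and CD14 was called higher (9 and 5 against 25 and 22 counts, log2 fold change 1.61, adjusted p = 0.0159). The leukocyte list summed to 0.889 to 0.987 CPM in shCON and 1.83 to 2.04 in shZDHHC15. The 4 endothelial markers summed to 57.1 CPM in both shCON libraries and to 101 and 107 in shZDHHC15, with CDH5 and PECAM1 higher and KDR lower. The part of these differences in the members' values was not tested.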

How the data were processed

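RNA-seq of HCC1954 cells comprised 2 shCON and 2 shZDHHC15 samples, grouped by their titles. The authors deposited raw counts of reads per gene for 58735 genes in 4 columns, not normalized, with each gene's length in bases as another deposited column. The submitters' processing notes name HISAT2, StringTie, SAMtools and hg38, while versions, counting tool, annotation and strand setting are not given in the sources used here. All 58735 identifiers had the position, name and exon length of GENCODE release 29. The number of per-sample columns left unused was 0. Depth was 17560982 to 19118704 counts per library, and the floor of 3 counts covers counting error only.

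The function filterByExpr kept 15817 genes, which were tested with edgeR 4.0.16 in R 4.3.3 (TMM, glmQLFit with legacy = FALSE, glmQLFTest, Benjamini-Hochberg adjustment). The standard error (SE) of a fold change is its size over the square root of F. Levels are CPM by TMM-scaled library size, per kb of deposited length for comparisons between genes. GC content was that of the longest GENCODE transcript, and near-identical stretches (at least 150 bases at 97% identity) were found with BLAST 2.17.0. On simulated counts for 15817 genes, edgeR recovered 84% of 200 genes given a log2 change of 1.5 with 3.45% false calls (9.95% with the replicate block), and smaller changes were not simulated. The share of genes changed in the simulation was far below the 42.0% called in the data, so these rates need not hold for the data. DESeq2 1.42.0, other scalings, other count filters (such as at least 10 counts in every sample), a replicate block and leaving out each sample were tried. The legacy dispersion and a GC correction were added after the data had been seen.

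The members and lists were chosen with earlier results of these data known. Full statistics are given for members past the threshold or among the 5 highest per kb in shCON and for ZDHHC2, ZDHHC20, ZDHHC11 and ZDHHC19. Outside the members YAP1, TEAD1, markers and other lipid-modification genes that passed are named, and overlapping and flanking genes were named after their values were seen. Some results among flanking genes and markers are not reported here.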

Additional observations from a re-analysis of the deposited data

How the results depend on the processing

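The calls of most members were close to the threshold. Transferases called higher numbered 4 with library size only, 0 with upper-quartile factors, with the DESeq2 Wald test and with no filter on low counts, and 1 with GC content correction, against 2 as reported, and between 0 and 5 with 1 library left out. Transferases called lower ranged from 3 to 6 with 1 library left out. Thioesterases and accessory genes called higher numbered 0 with DESeq2, with no filter and with GC content correction, against 1, and 0 to 2 with 1 library left out. Those called lower numbered 1 with library size only and 2 with no filter, against 5, and 1 to 5 with 1 library left out. With no filter 2282 genes were higher over all genes, against 3427, and 4632 were called in all, with 30168 genes tested. Of the 15817 genes, 3926 were higher and 2545 lower with library size only, against 3427 and 3217 as reported. Upper-quartile factors gave 3202 and 3458, GC content correction 3470 and 3586, and DESeq2 2432 and 2590. With 1 library left out, calls over all genes also fell in number, except without shCON replicate 1, where their number was similar. The cause of these shifts was not tested. The summed level of the other transferases was 0.955 of control with library size only, 0.895 with DESeq2 size factors and 0.923 without length scaling. Without length scaling the share of ZDHHC15 was 43.3% and its level 3.34-fold that of the next transferase.

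Sign changes were seen only in members that were not called. ZDHHC5 was 0.051 with library size only. ZDHHC20 was -0.081 and ABHD17B -0.059 with GC content correction. ABHD17C was -0.0029 with DESeq2 size factors, -0.021 with upper-quartile factors, -0.0089 with the DESeq2 Wald test, -0.0078 with no filter and -0.11 with GC content correction. With 1 library left out, ZDHHC8 ranged from -0.0090 to 0.28, ZDHHC20 from -0.048 to 0.12, ZDHHC21 from -0.099 to 0.37, ZDHHC23 from -0.057 to 0.28, ABHD17B from -0.0052 to 0.16 and ABHD17C from -0.050 to 0.060. A group left with 1 library was assumed to vary like the other.

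Same-numbered samples did not deviate together (r = 0.034 over 15816 genes), so the numbers were not taken to pair the samples. With the replicate number as a block, 3 transferases were higher and 6 lower, and 1 and 5 of the thioesterases and accessory genes, while 7225 genes were called over all genes against 6644. The blocked fit made 9.95% false calls on simulated counts, above the threshold of 0.05, in a setting with far fewer changed genes than were called here. At this depth low genes such as ZDHHC1 gave wide intervals, and 2 samples a group limit every p-value.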
